A study of Mus musculus with 15 samples.

Results

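The 9 genes described here, *Atf4*, *Ddit3*, *Atf3*, *Trib3*, *Chac1*, *Ddit4*, *Asns*, *Psat1* and *Phgdh*, are genes of the integrated stress response and of serine and asparagine synthesis. They were taken by symbol from the 48709 genes counted in 15 RNA-seq libraries of mouse embryonic stem cells (ESCs) that lost OCT4, the product of *Pou5f1*. All 9 passed the low-count filters of both time courses, which kept 18969 genes in the CreER course and 13771 in the O4AID course. CreER ESCs (genotype Oct4Fl/-; CAG CreER, mixed 129SV C57BL/6 strain) hold a floxed allele opposite a null allele, and 4-hydroxytamoxifen (4-OHT, 500 nM) activates a CreER recombinase driven by the ubiquitous CAG promoter. They were sequenced at 0, 12, 18, 24 and 36 h with 2 replicates a time, and the labels do not say whether replicates were separate cultures, so p-values measure the spread between these libraries. O4AID ESCs (strain 129SV) are Oct4-/- and carry 3 transgenes, TetOFF Oct4, CAG Oct4AID and CAG Tir1, the last for the auxin receptor. They were kept at every time, 0 h included, in doxycycline (1 µg/ml), which silences TetOFF Oct4. Their OCT4 then comes from Oct4AID, which carries an auxin-inducible degron, and the auxin indole-3-acetic acid (IAA, 500 µM) marks that protein for destruction. O4AID has 1 library a time, at 0, 1.5, 6, 10 and 24 h, so its values have no replicate check and compare libraries. Both lines grew without feeders on gelatin in N2B27 with LIF and the inhibitors PD03 and Chiron. For its qRT-PCR and protein courses of Oct4Fl/- ESCs, the paper describes a switch to serum and LIF medium with 4-OHT. Its RNA-seq legend names no medium, so whether medium changed with time in the CreER libraries is not known. No library pairs either agent with cells whose OCT4 it cannot remove, so an effect of the agent and an effect of OCT4 loss cannot be told apart.

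The CreER libraries held 21.7 to 30.8 M counted reads, the O4AID libraries 40.5 to 48.7 M. Levels are given as CPM, read counts per M reads of library, scaled by the trimmed mean of M values (TMM). *Pou5f1* mRNA in CreER stood at 327 ± 3.91 CPM (SD, n = 2) at 0 h and 121 ± 8.59 at 36 h. In O4AID it stood at 717 CPM at 0 h and 601 at 24 h, and IAA acts on the protein, so this mRNA does not check the labels. The 7 ESC markers summed to 2174 to 3059 CPM in CreER and 1616 to 4952 in O4AID and none was at 0. The 7 trophectoderm markers summed to 324 to 682 CPM in CreER and 104 to 162 in O4AID, none at 0, with the highest sums at the latest times. The 6 primitive endoderm markers summed to 14.7 to 38.0 CPM in CreER and 9.95 to 42.9 in O4AID, where *Sox7* was at 0 at 1.5 and 10 h. The 6 fibroblast markers summed to 6.26 to 8.03 CPM in CreER and 2.57 to 4.74 in O4AID, where *Dcn* was at 0 in 5 of 5 libraries, *Postn* in 4 and *Lum* in 3. These markers moved with time in both courses, fewer cells of a type and less RNA per cell cannot be told apart in bulk RNA, and the part of other cell types in the results below was not tested.

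In the integrated stress response, kinases that sense amino acid shortage, unfolded protein, double-stranded RNA or haem deficiency phosphorylate eIF2 alpha. This slows translation in general but raises that of *Atf4* mRNA, so the level of *Atf4* mRNA does not report the level of its protein. ATF4 is a bZIP transcription factor that binds, often with a C/EBP partner, to composite sites in genes of amino acid synthesis and transport, and it induces the factors CHOP (*Ddit3*) and ATF3. Serine made by PHGDH and PSAT1 feeds one-carbon metabolism, on which nucleotide synthesis and methylation depend, and mouse ESCs also draw glycine and one-carbon units from threonine.

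To show where such sites may lie, promoters of the 9 members were searched for TGATGNAA, a motif of the C/EBP-ATF response element, on either strand. RefSeq windows of 300 bases were used (GRCm38.p6, 250 bases before and 50 after the annotated start). A gene could have several windows, as *Psat1* did. The motif was found in 4 of the 9 members against 3.97% of 32851 promoters, or 4.51% of 27025 genes. The matches are printed below in 30 bases on the strand of the gene, with the motif or its reverse complement in capitals, because they are the places where these members carry the motif.
Chac1, chr2:119351038-119351067, plus strand, match beginning at -193 from the start: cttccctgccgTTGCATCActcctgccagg
Atf3, chr1:191183425-191183454, minus strand, match beginning at -110: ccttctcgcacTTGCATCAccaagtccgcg
Asns, chr6:7693214-7693243, minus strand, match beginning at -23: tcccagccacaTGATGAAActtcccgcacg
Trib3, chr2:152344028-152344057, minus strand, match beginning at +15: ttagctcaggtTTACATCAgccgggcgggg
The motif is in the reverse orientation in *Chac1*, *Atf3* and *Trib3* and in the forward orientation in *Asns*. The longer ER stress element was found in 0 of the 9 members and in 0.119% of all promoters, or 0.137% of genes. The *Trib3* match begins at +15 from the RefSeq start but lies before the counted gene, whose first base on its strand is 152344032. The *Atf3* window lies at a start inside the counted gene, which extends to 191218039. A match describes letters in a window and not a bound site.

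After 4-OHT, 3 stress genes rose and 1 enzyme gene fell by 36 h. *Ddit3*, *Atf3* and *Ddit4* were higher at 36 h than at 0 h by 1.60-, 1.70- and 1.41-fold, and *Phgdh* fell to 0.857-fold. *Atf4*, *Trib3*, *Chac1*, *Asns* and *Psat1* did not pass at that time. At an adjusted p under 0.05 in edgeR's quasi-likelihood test, the members that passed numbered 0, 1, 2 and 4 of 9 after 12, 18, 24 and 36 h. The shares of all genes that passed were 0.395%, 8.52%, 21.6% and 36.6% at those times. Single libraries moved these totals. The 75 genes at 12 h became 8 and 12 without 12 h replicate 1 or 2, 218 without 0 h replicate 1, and 169 and 165 without 36 h replicate 1 or 2. The 1616 at 18 h became 739 without 0 h replicate 2 and 582 and 814 without 18 h replicate 1 or 2, and the 4089 at 24 h became 2470 and 2343 without 24 h replicate 1 or 2. Higher calls made up 19.4% of all genes at 36 h and lower calls 17.2%, against 3 and 1 of the 9 members. At 12 h, 2 members had an unadjusted p under 0.05 (*Atf4* and *Atf3*) and DESeq2 also passed 0. The median log2 fold change of the 9 members went through 0.14, 0.09, 0.02 and -0.01 in order of time, and over all genes it lay between -0.000348 and 0.0130. The last pair of medians has no stable sign. At 24 h it was 0.135 without 0 h replicate 1 and -0.011 without 0 h replicate 2, and at 36 h it was 0.016 without 0 h replicate 1 and -0.096 with total-count scaling.

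**Figure D1:**
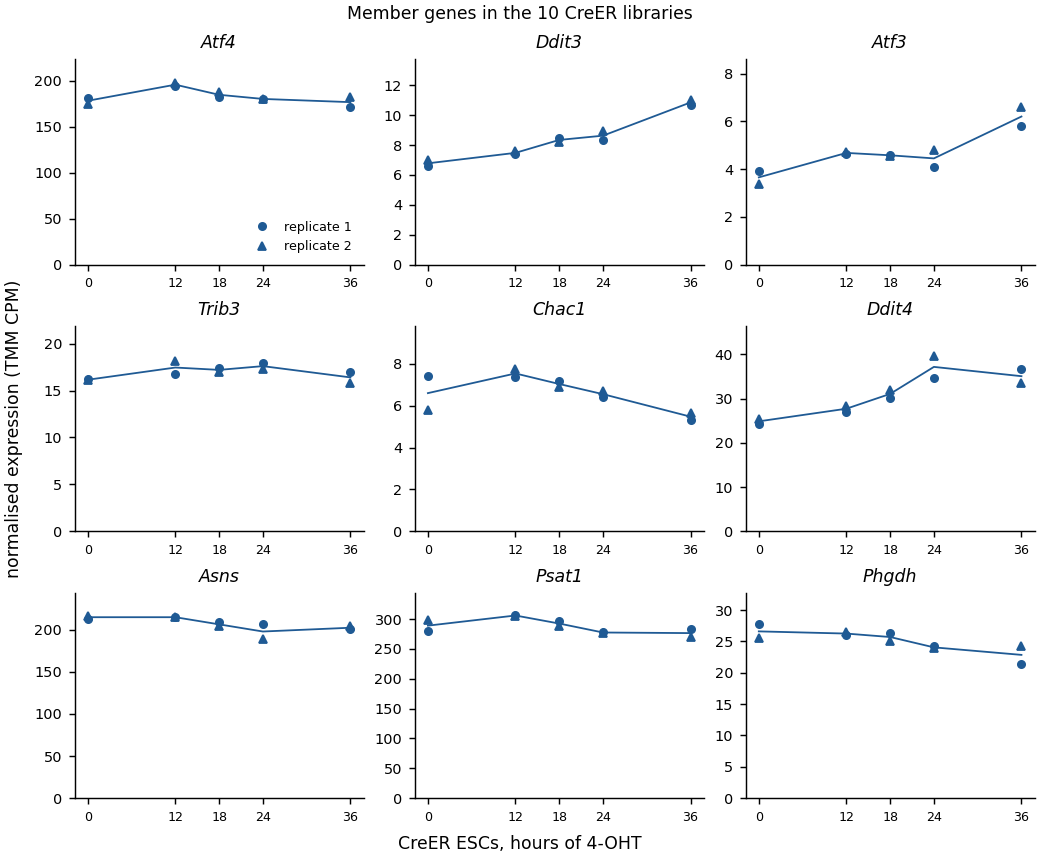
Normalised expression (TMM CPM, vertical axes from 0) of the 9 members against hours of 4-OHT in the 10 CreER libraries. Circles and triangles are replicates 1 and 2 and lines join the means; Ddit3, Atf3 and Ddit4 end above their 0 h replicates while Atf4 and Asns stay between 171 and 217 CPM throughout.

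Among the transcription factors, *Atf4* itself (chromosome 15, 80255184 to 80257540, GRCm38) was nearly level. Its replicates read 181 and 175 CPM at 0 h, 194 and 197 at 12 h, 182 and 187 at 18 h, 180 and 180 at 24 h, and 171 and 182 at 36 h. The 12 h pair was above every other library, but the change from 0 h (log2 0.14, SE 0.0417) had an adjusted p of 0.198. Over the whole course the F test gave an adjusted p of 0.0320. That call was lost with DESeq2 (0.0738) and without either replicate of 12, 18 or 24 h, up to 0.246 without 12 h replicate 2.

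*Ddit3* (chromosome 10, 127290774 to 127296288), which encodes the pro-apoptotic factor CHOP, rose by 24 h and further by 36 h. Its replicates read 6.58 and 6.97 CPM at 0 h, 7.38 and 7.57 at 12 h, 8.46 and 8.22 at 18 h, 8.32 and 8.93 at 24 h, and 10.7 and 11.0 at 36 h. Every treated library stood above both untreated ones, and both 36 h libraries stood above the rest. At 24 h the rise was 0.34 on the log2 scale (SE 0.105) with an adjusted p of 0.0192. At 36 h it was 0.68 (SE 0.105) with an adjusted p of 8.3e-06. The 24 h call was lost with DESeq2 (adjusted p = 0.135), without 0 h replicate 1 (0.0893) and without 24 h replicate 2 (0.139), whereas at 36 h the adjusted p stayed at or under 0.000263 in every setting run. Of the 1713 exon bases of *Ddit3*, 68 (3.97%) overlap *Mars* on the opposite strand, and whether counting used strand is not stated.

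*Atf3* (chromosome 1, 191170296 to 191218039), a bZIP repressor and stress sensor, rose late. It read 3.93 and 3.38 CPM at 0 h, 4.65 and 4.71 at 12 h, 4.60 and 4.56 at 18 h, 4.09 and 4.81 at 24 h, and 5.79 and 6.62 at 36 h. The pair at 36 h was clear of all other libraries, with log2 0.76 above 0 h (SE 0.143, adjusted p = 0.000105). Between 24 and 36 h both *Atf3* (log2 0.48, SE 0.137, adjusted p = 0.0170) and *Ddit3* (log2 0.33, SE 0.0997, adjusted p = 0.0238) rose, 2 of 9 members against 14.7% of all genes. Both calls for this last interval were lost with DESeq2 (adjusted p = 0.122 for *Atf3* and 0.156 for *Ddit3*), with total-count scaling (0.0527 and 0.120), without 24 h replicate 1 (0.216 and 0.193), and without 36 h replicate 2 (0.153 and 0.106). Without 24 h replicate 2 or 36 h replicate 1, *Ddit3* alone lost it (0.0571 and 0.0726). No member passed from 12 to 18 h or from 18 to 24 h in this fit, where 1 member in each step (*Ddit4*) had an unadjusted p under 0.05.

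The stress effectors did not move together. *Ddit4* (chromosome 10, 59949675 to 59951770) encodes REDD1, an inhibitor of the growth kinase complex mTORC1. It read 24.3 and 25.4 CPM at 0 h, 27.0 and 28.4 at 12 h, 30.1 and 32.0 at 18 h, 34.6 and 39.7 at 24 h, and 36.7 and 33.4 at 36 h. It was the earliest member to pass, at 18 h, where log2 was 0.32 (SE 0.0725, adjusted p = 0.00539). The rise reached 0.57 by 24 h (SE 0.0708, adjusted p = 7.9e-07), and 0.50 was left at 36 h (SE 0.0730, adjusted p = 4.02e-06). The replicates at 24 and 36 h overlapped, and without 18 h replicate 2 the call at 18 h was lost (adjusted p = 0.0980).

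*Trib3* (chromosome 2, 152337422 to 152344032), a pseudokinase that dampens ATF4 and AKT, lay between 15.8 and 18.1 CPM in the 10 libraries and passed at no time. *Chac1* (chromosome 2, 119351229 to 119354381), which degrades glutathione, read 7.42 and 5.78 CPM at 0 h, 7.35 and 7.73 at 12 h, 7.17 and 6.90 at 18 h, 6.40 and 6.70 at 24 h, and 5.31 and 5.64 at 36 h. The 36 h pair was the lowest of the course, though the untreated replicates were themselves far apart. Its log2 change at 36 h was -0.26 (SE 0.133, adjusted p = 0.128), and without 0 h replicate 2 it was -0.44 with an adjusted p of 0.0214.

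Of the enzymes, asparagine synthetase (*Asns*, chromosome 6, 7675169 to 7693254) lay between 189 and 217 CPM and did not pass at 36 h (log2 -0.09, SE 0.0434, adjusted p = 0.126). At 24 h its log2 change of -0.12 had an adjusted p of 0.0504, and 5 alternative settings took it under the threshold, the smallest at 0.0138 without 24 h replicate 1. *Psat1* (chromosome 19, 15904678 to 15947337), the phosphoserine aminotransferase, lay between 270 and 307 CPM. It passed in no contrast with 0 h, and its F test over the course gave an adjusted p of 0.0288, lost without either replicate of 12 or 24 h or 18 h replicate 1 (0.0547 to 0.173). *Phgdh* (chromosome 3, 98313170 to 98339990) encodes the rate-limiting dehydrogenase of serine synthesis. It read 27.7 and 25.5 CPM at 0 h, 26.0 and 26.5 at 12 h, 26.4 and 25.0 at 18 h, 24.2 and 23.9 at 24 h, and 21.4 and 24.3 at 36 h. Both 36 h libraries were under both untreated ones, and the log2 difference was -0.22 (SE 0.0732, adjusted p = 0.0182). This call was lost with DESeq2 (adjusted p = 0.0632), with only the 4 libraries compared (0.0589), without 0 h replicate 1 (0.136) and without 36 h replicate 1 (0.291).

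Over the whole course, 5 of the 9 members passed the F test (*Atf4*, *Ddit3*, *Atf3*, *Ddit4* and *Psat1*) against 34.4% of all genes. With scaling by total counts in place of TMM, the median log2 change of all genes was -0.078 at 36 h (0.007 with TMM) and -0.103 between 24 and 36 h (0.004 with TMM). Higher calls were then 36.9% of those at 12 h (65.3% with TMM), 61.3% at 24 h (51.0% with TMM), 36.0% at 36 h (53.1% with TMM), and 17.5% between 24 and 36 h (55.4% with TMM). With that scaling 7 members passed at 36 h, the same 3 higher and 4 lower, with *Chac1* at -0.35, *Asns* at -0.17, *Psat1* at -0.15 and *Phgdh* at -0.31. Of all 18969 genes, 7498 passed at 36 h with total counts, 2696 higher and 4802 lower.

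After IAA most stress genes were at their highest between 1.5 and 10 h, and the 3 enzymes were at their lowest at 24 h. *Chac1* stood at 2.04-fold and *Atf3* at 1.52-fold of the untreated library at 1.5 h, while *Asns*, *Psat1* and *Phgdh* stood at 0.504-, 0.563- and 0.487-fold at 24 h. With 1 library a time no test was possible, and a gene was counted where log2 of the ratio of CPM plus 1 was past 1.5-fold. At 1.5 h 2 members were higher by that rule, against 0.276% of all genes. At 6 h there were 3 (2.58% of genes), at 10 h 2 (5.13%, with 4.16% lower) and at 24 h 1 higher and 3 lower (11.6% and 10.8% of genes). The median log2 change of the members was 0.24, 0.45, 0.45 and -0.08 in order of time, and that of all genes lay between -0.0324 and -0.000611. Of the genes past 1.5-fold, the higher ones made up 35.8%, 49.6% and 51.8% at 1.5, 6 and 24 h with TMM and 46.9%, 61.4% and 65.4% with total counts.

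**Figure D2:**
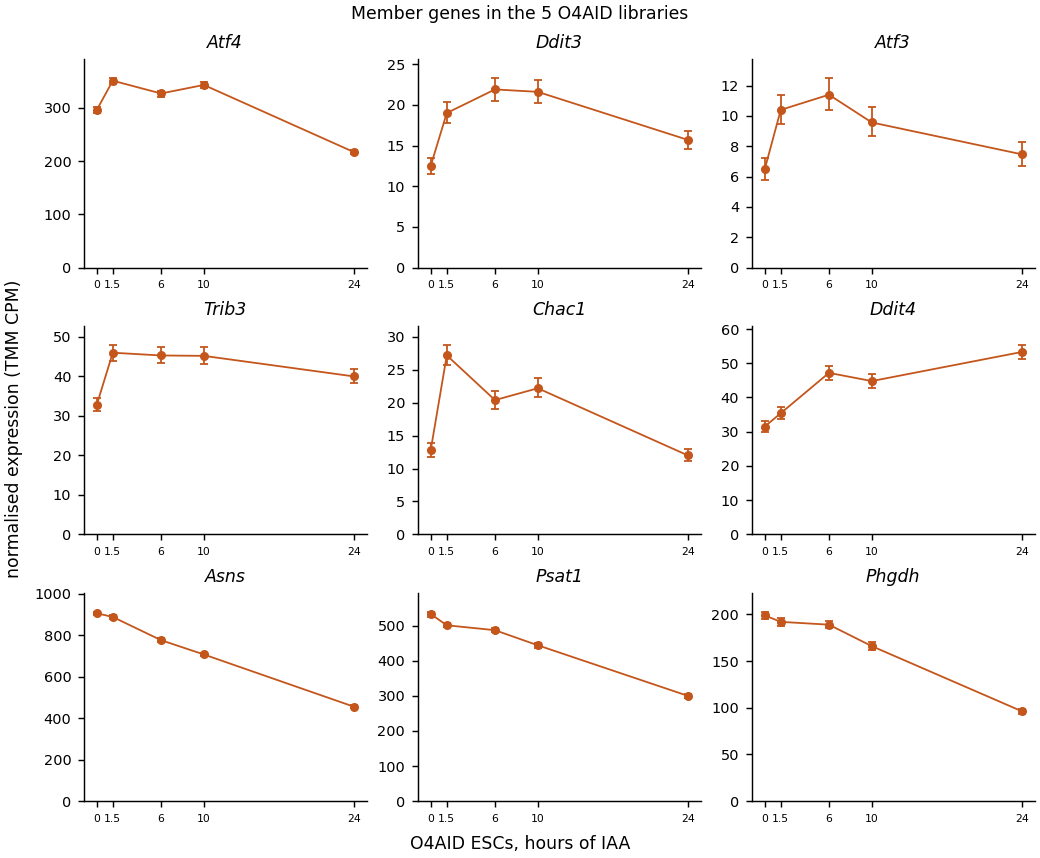
Normalised expression (TMM CPM, vertical axes from 0) of the 9 members against hours of IAA in the 5 O4AID libraries, with bars for the 95% Wilson interval, which covers counting error alone. Ddit3, Atf3, Trib3 and Chac1 peak between 1.5 and 10 h, Ddit4 is highest at 24 h, and Asns, Psat1 and Phgdh are lowest at 24 h.

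*Atf4* mRNA read 296, 351, 327, 343 and 217 CPM at 0, 1.5, 6, 10 and 24 h. The early values lay above and the last below the untreated library, by log2 0.24 at 1.5 h (95% interval 0.20 to 0.29) and -0.45 at 24 h (-0.50 to -0.40), neither past 1.5-fold. From 10 to 24 h the log2 step of *Atf4* was -0.66 (interval -0.71 to -0.61), which is past 1.5-fold. *Ddit3* read 12.5, 19.0, 21.9, 21.6 and 15.7 CPM. It was past 1.5-fold at 6 h (log2 0.76, interval 0.56 to 0.96) and 10 h (0.74, interval 0.54 to 0.94), and at 24 h it stood at 0.31 (0.10 to 0.51). *Atf3* read 6.47, 10.4, 11.4, 9.57 and 7.47 CPM, past 1.5-fold at 1.5 h (log2 0.61, interval 0.34 to 0.87) and 6 h (0.73, interval 0.47 to 0.99). By 24 h its interval included no change (log2 0.18, interval -0.09 to 0.45).

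*Chac1* made the largest early difference among the members, reading 12.8, 27.2, 20.4, 22.2 and 12.0 CPM. On the log2 scale it stood 1.03 higher after 1.5 h (interval 0.85 to 1.22), 0.63 after 6 h and 0.75 after 10 h. From 10 to 24 h the log2 step was -0.84 (interval -1.04 to -0.64), and the 24 h interval against 0 h included no change (log2 -0.08, interval -0.30 to 0.13). *Trib3* read 32.8, 46.0, 45.3, 45.2 and 40.0 CPM, a plateau from 1.5 to 10 h at log2 0.45 to 0.47 that stayed under 1.5-fold. *Ddit4* read 31.5, 35.4, 47.2, 44.8 and 53.3 CPM, so that, unlike *Chac1* and *Atf3*, its highest value was the last (log2 0.74 at 24 h, interval 0.61 to 0.87).

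The 3 enzymes were lower at each later time. *Asns* read 907, 889, 777, 708 and 456 CPM, and its log2 change went from -0.03 at 1.5 h through -0.22 and -0.36 to -0.99 at 24 h (interval -1.02 to -0.96). *Psat1* read 533, 501, 487, 444 and 300 CPM, ending at -0.83 (interval -0.87 to -0.79). *Phgdh* read 199, 192, 189, 166 and 96.3 CPM, ending at -1.04 (interval -1.11 to -0.97). Its interval at 1.5 h against 0 h included no change (-0.11 to 0.01), as did that of the step from 1.5 to 6 h (-0.09 to 0.03). For all 3 enzymes most of the difference lay between 10 and 24 h, where the log2 steps were -0.63, -0.57 and -0.78. The summed ESC markers also went from 4952 CPM at 0 h to 1616 at 24 h in these libraries. Of the 5 genes of the aryl hydrocarbon receptor battery, 1 was past 1.5-fold higher at 1.5 h. This was *Cyp1a1*, at 0.704 CPM at 0 h and 10.7 at 1.5 h (log2 2.78, interval 2.44 to 3.08). From 6 h on, all 5 were past 1.5-fold higher. So were 0.276%, 2.58%, 5.13% and 11.6% of all genes at 1.5, 6, 10 and 24 h. The part of the ESC markers' fall or of the battery's rise in the members' values was not tested.

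At 24 h, the time both courses share, the values of *Ddit3*, *Atf3*, *Ddit4*, *Chac1* and *Trib3* lay closer together in the 2 systems. Those of *Atf4* and the enzymes lay farther apart. The log2 changes (CPM plus 1) in CreER and O4AID were 0.31 and 0.31 for *Ddit3*, 0.23 and 0.18 for *Atf3*, 0.56 and 0.74 for *Ddit4*, and -0.01 and -0.08 for *Chac1*. For *Trib3* they were 0.12 and 0.28. By contrast they were -0.12 and -0.99 for *Asns*, -0.06 and -0.83 for *Psat1*, -0.14 and -1.04 for *Phgdh*, and 0.02 and -0.45 for *Atf4*. In these last 4 genes, and in *Trib3*, both CreER replicates lay outside the O4AID counting interval. The difference between systems was not tested, since O4AID has 1 library a time. Line, strain, agent and timing of OCT4 loss all differ, and medium may.

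**Figure D3:**
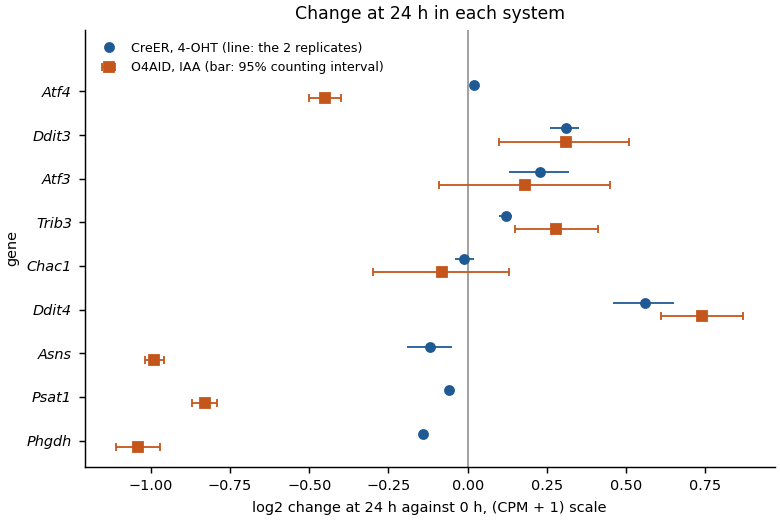
Log2 change at 24 h against 0 h on the CPM plus 1 scale (horizontal axis) for each member, with blue circles for CreER (line from replicate to replicate) and orange squares for O4AID (bar: 95% counting interval). The squares of Atf4, Asns, Psat1 and Phgdh lie to the left of zero at -0.45 to -1.04 while their circles lie between -0.14 and 0.02.

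The lines already differed before treatment. On TMM factors over the 15 libraries together, the untreated O4AID library exceeded the mean of the 2 untreated CreER libraries in 9 of 9 members, and in 8 of them by over 1.5-fold on the CPM plus 1 scale, against 31.1% of 15235 genes. *Asns* stood at 210 ± 3.04 CPM (SD, n = 2) in CreER and 967 in O4AID, 4.61-fold, and *Phgdh* at 25.9 ± 1.45 and 212, 8.19-fold. The ratios were 2.22 for *Trib3*, 2.12 for *Chac1*, 2.02 for *Ddit3* and for *Psat1*, 1.94 for *Atf3*, 1.82 for *Atf4* and 1.39 for *Ddit4*. In 8 members, *Ddit4* being the exception, the lowest of all 5 O4AID libraries was above the highest of all 10 CreER libraries, as was so for 37.3% of genes. For example, *Psat1* was at 315 CPM in its lowest O4AID library and 300 in its highest CreER library. Doxycycline, strain and transgenes differ between the lines as well, so their parts cannot be told apart, and with 1 library against 2 no test was made.

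**Figure D4:**
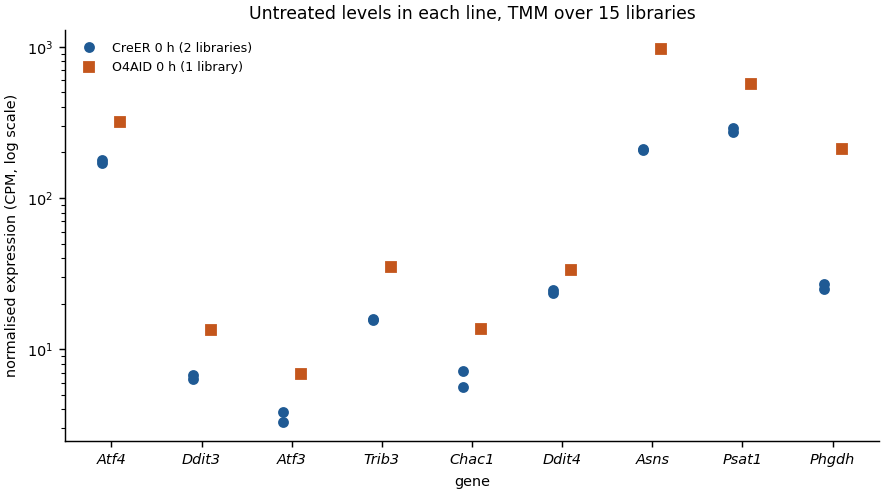
Untreated levels (CPM with TMM over 15 libraries, log axis) of the 9 members, with blue circles for the 2 CreER libraries and orange squares for the O4AID library. Each square lies above both circles, least widely for Ddit4. Phgdh stands at 212 against 26.9 and 24.9 CPM counted alone, 8.19-fold, and at 2.28-fold with its near-identical copies summed, under the 4.61-fold of Asns.

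Per kilobase of exon, so that genes can be set beside each other, untreated CreER cells held 101 CPM per kb of *Atf4*, 76.7 of *Asns* and 66.1 of *Psat1*. Lower came *Ddit4* at 14.4, *Phgdh* at 10.4, *Trib3* at 7.41, *Chac1* at 3.93, *Ddit3* at 3.85 and *Atf3* at 1.65. The place of *Phgdh* in CreER is uncertain, because near-identical genes took 72.2% to 74.9% of the reads of *Phgdh* plus copies there. In untreated O4AID cells the order began with *Asns* (354 CPM per kb), *Atf4* (183), *Psat1* (134) and *Phgdh* (85.3) and ended, as in CreER, with *Atf3* (3.20). *Chac1* and *Ddit3* were neighbours whose replicate spread overlapped in CreER.

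The *Phgdh* values depend on how reads were shared with near-identical genes. The annotation holds 14 other genes whose transcripts are at least 90% identical to *Phgdh* over at least 200 bases, and they took 72.2% to 74.9% of the reads of *Phgdh* plus copies in CreER but 0.301% to 0.774% in O4AID. *Gm7901*, which is 98.7% identical over 1597 bases, held 48.5 to 59.2 CPM in CreER and 0.104 to 0.581 in O4AID. *Gm9347* (97.4% over 1608 bases) held 10.4 to 12.4 CPM and 0 to 0.0484. With the copies added, untreated *Phgdh* stood at 93.4 ± 5.27 CPM (SD, n = 2) in CreER and 213 in O4AID, a ratio of 2.28 in place of 8.19. The CreER change at 36 h became -0.16 with an adjusted p of 0.0173, and *Gm7901* alone fell by 0.15 on the log2 scale (SE 0.0597, adjusted p = 0.0471). Whether the copies are transcribed, or took reads of *Phgdh* that differ by strain, was not tested, so the level of *Phgdh* in CreER is uncertain. The O4AID course is hardly touched by the choice, and the 1 copy of *Psat1* never exceeded 4 counts.

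**Figure D5:**
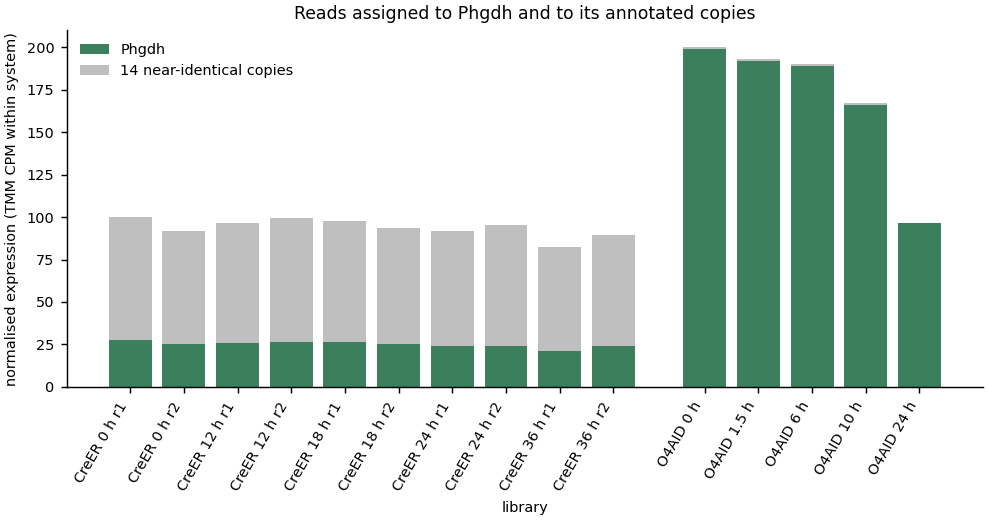
Stacked bars (TMM CPM within each system, axis from 0) of reads assigned to Phgdh (green) and to its 14 near-identical copies (grey) in each of the 15 libraries, r1 and r2 being replicates. The copies hold most of the bar in all 10 CreER libraries and next to none in the 5 O4AID libraries.

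The other genes of the pathway were divided. Their counts are to be read against all genes, of which 19.4% rose and 17.2% fell at 36 h in CreER, and 11.6% were past 1.5-fold higher and 10.8% lower at 24 h in O4AID. Among 7 genes for eIF2 kinases, eIF2 alpha and its phosphatase subunits, 1 was higher and 1 lower at 36 h in CreER. *Eif2ak3*, the kinase PERK, rose (31.2 ± 0.543 to 36.9 ± 0.764 CPM, SD, n = 2, log2 0.24, adjusted p = 0.00310) and *Eif2s1*, eIF2 alpha itself, fell by 0.16 (adjusted p = 0.00293). In O4AID 1 of these 7 was past 1.5-fold higher at 1.5 h, against 0.276% of all genes. This was *Ppp1r15a*, named after its value was seen, which encodes the feedback phosphatase subunit GADD34. It read 24.3, 37.8, 25.0, 25.3 and 21.4 CPM. At 24 h the 1 gene past 1.5-fold was *Eif2ak2*, the double-stranded RNA kinase PKR, at log2 0.65 (interval 0.49 to 0.82).

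Of 8 further factors and secreted targets on the ATF4 axis, 7 were tested in CreER, where 2 rose at 36 h and none fell. *Gdf15*, a stress-secreted cytokine, went from 1.73 ± 0.390 to 3.65 ± 0.211 CPM (log2 1.09, adjusted p = 7.01e-05). The other was *Cebpb*, named after its value was seen, a C/EBP partner of ATF4 with few reads, at 1.00 ± 0.172 and 2.60 ± 0.367 CPM. In O4AID 1 of 6 was higher at 24 h, *Sesn2*, a sensor of amino acid supply (log2 0.61), and 2 were lower, *Gdf15* (-0.87) and *Stc2* (-0.73). *Gdf15* there read 5.38, 8.04, 7.80, 7.06 and 2.49 CPM, with the 3 middle libraries the highest.

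Of the 9 amino acid transporters, 5 fell and 0 rose at 36 h in CreER (17.2% and 19.4% of all genes), with a median log2 change of -0.29. *Slc7a3*, a carrier of basic amino acids, fell from 149 ± 0.324 to 63.3 ± 2.98 CPM (log2 -1.24, adjusted p = 1.06e-17), and *Slc38a2*, a sodium-coupled carrier of neutral amino acids, from 669 ± 21.0 to 410 ± 36.3 (log2 -0.71, adjusted p = 1.85e-12). In O4AID 3 of 9 were higher at 10 h (*Slc7a11*, *Slc7a3* and *Slc1a4*), against 5.13% of all genes, and 1 at 24 h, against 11.6%. That was *Slc7a11*, the cystine carrier, which read 3.52, 4.50, 10.6, 14.9 and 9.44 CPM (log2 1.21 at 24 h, interval 0.91 to 1.50).

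Charging enzymes for tRNA, with the tRNA exporter *Xpot*, changed little in size. Against the same shares of all genes, 1 of 13 rose in CreER at 36 h (*Sars*, log2 0.30, adjusted p = 2.23e-06) and 7 fell, with *Xpot* at -0.34 (adjusted p = 2.18e-07) and *Gars* at -0.18 (adjusted p = 0.000465). In O4AID all were within 1.5-fold until 10 h and 2 were lower at 24 h, *Tars* at -0.63 and *Nars* at -0.59, with a list median of -0.42.

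Beyond *Psat1* and *Phgdh*, 13 enzymes of serine, glycine, one-carbon and proline metabolism gave more lower than higher calls late in both courses. In CreER 7 fell and 1 rose at 36 h (17.2% and 19.4% of all genes). In O4AID 3 were lower at 10 h (4.16% of all genes) and 8 at 24 h (10.8%), where none was higher. The list medians were -0.14 at 36 h in CreER and -0.68 at 24 h in O4AID. *Tdh*, threonine dehydrogenase, on which mouse ESCs depend for glycine, fell from 234 ± 12.7 to 156 ± 1.05 CPM in CreER (log2 -0.58, adjusted p = 3.45e-11) and read 157, 154, 106, 81.2 and 46.9 CPM in O4AID (log2 -1.72 at 24 h). *Shmt2*, the mitochondrial serine hydroxymethyltransferase, fell by 0.24 in CreER (adjusted p = 0.000198) and stood at -0.68 at 24 h in O4AID. *Gldc*, of the glycine cleavage system, went the other way in CreER, where it rose from 328 ± 0.507 to 404 ± 2.13 CPM (log2 0.30, adjusted p = 3.45e-07), while O4AID read 125, 120, 100.0, 82.2 and 46.4 CPM.

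Of 12 ER chaperones and related genes, the unfolded protein factor *Xbp1* among them, 4 rose and 1 fell at 36 h in CreER (19.4% and 17.2% of all genes), led by *Xbp1* (log2 0.43, adjusted p = 5.13e-07) and *Dnajc3*, an inhibitor of PERK (0.21, adjusted p = 0.00385), with *Pdia4* at -0.11 (adjusted p = 0.0281). In O4AID 0 were past 1.5-fold before 24 h, when *Hsp90b1*, the ER HSP90, was lower (-0.70). *Hspa5*, the chaperone BiP and a standard mark of ER stress, was named after its values were seen. It went from 606 ± 27.7 to 630 ± 5.32 CPM in CreER (adjusted p = 0.327) and read 411, 449, 509, 515 and 324 CPM in O4AID.

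For a pattern like that of the members, the mean z-score of the 9 was compared with 14074 genes over the 15 libraries, each centred within its system. The 5 most alike genes outside the members were *Dusp1* (Pearson's r = 0.953, Spearman's rho = 0.889), *Csrnp2* (0.931), *Tlr2* (0.914), *Mafg* (0.913) and *Mapk4* (0.904). *Dusp1*, a phosphatase that switches off MAP kinases, read 19.0, 26.5, 31.2, 25.1 and 11.6 CPM in O4AID, high in the middle and lowest at the end. Each member is itself part of the mean. Over the 15 libraries *Atf4* was nearest it (r = 0.901) and *Ddit4* farthest (r = -0.0202). Within the 10 CreER libraries r was 0.457 for *Atf4* and under zero for *Asns* (-0.408), *Phgdh* (-0.278) and *Psat1* (-0.0224). The remaining members lay between 0.169 and 0.734 there. For the 5 genes outside the members r was 0.469 to 0.800 within the 10 CreER libraries and 0.942 to 0.976 within the 5 O4AID libraries. The libraries share time courses and scaling.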

How the data were processed

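Counts of 15 RNA-seq libraries were used as the authors deposited them, raw read counts per gene. Per the labels and the study's methods, total RNA was depleted of ribosomal RNA, made into directional libraries, trimmed with Trim Galore 0.1.4, aligned to GRCm38/mm10 with TopHat2 2.1.0 and counted with featureCounts 1.5.1 on an Ensembl annotation. Strand and multimapping settings are not given in the sources used here, which bears on overlapping and duplicated genes. The authors' normalised table was not used.

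Of 48801 entries, 92 spike-ins without reads were dropped, and genes without a symbol (0.0412% of reads) stayed. Replicate counts differed by more than sampling noise (chi-square over its degrees of freedom 3.27 to 7.76). CreER was fitted with edgeR 4.0.16 in R 4.3.3 (TMM, filterByExpr, robust quasi-likelihood, all 10 libraries, Benjamini-Hochberg adjustment over all genes, passing under 0.05). The fit was also run on simulated counts with a single dispersion for all genes and planted 2-fold changes in well-counted genes. That run checked the code and did not cover changes as small as those of the members. O4AID, without replicates, was described by log2 ratios of CPM plus 1 with 95% Wilson intervals (SciPy 1.17.1), for genes at a mean of at least 1 CPM. Reads carry no molecular identifiers, so intervals cover counting error only. Alternatives were other scalings, DESeq2 1.42.0, other filters, thresholds and pseudocounts, each library left out, and a replicate block. The members and all lists were chosen with earlier results of these data known. Named beside the members were up to 2 genes a direction of each list at 36 h in CreER and 1 at 24 h in O4AID, among called genes with a mean of at least 50 counts, and the 5 genes most like the members. *Ppp1r15a*, *Cebpb*, *Stc2*, *Nars*, *Hspa5*, and *Slc7a3* and *Slc1a4* at 10 h in O4AID, lie outside this rule and were named after their values were seen. Promoter sequence came from RefSeq (GRCm38.p6), in which 9 of 9 members matched.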

Additional observations from a re-analysis of the deposited data

How the results depend on the processing

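The rise of *Ddit3*, *Atf3* and *Ddit4* at 36 h in CreER kept its direction and passed under every alternative run. The number of members passing at 24 h went from 2 to 1 with DESeq2, that between adjacent times from 2 to 0 with DESeq2, and that at 36 h from 4 to 7 with total-count scaling. Over all 18969 genes, 6948 passed at 36 h with TMM and 7498 with total-count scaling. With each library left out in turn, the members passing numbered 0 at 12 h, 0 to 1 at 18 h, 1 to 3 at 24 h, 3 to 5 at 36 h, 0 to 3 between adjacent times and 3 to 7 over the whole course. The O4AID count at 1.5 h went from 2 to 1 with a pseudocount of 5 CPM or a 2-fold threshold. At 6 h it went from 3 to 1 with that pseudocount, and to 0 with the 2-fold threshold or with the 1.5 h library as reference. At 10 h it went from 2 to 0 under either of these last settings, and at 24 h from 4 to 1 with the 2-fold threshold, by construction of the threshold. Against the 1.5 h library, *Chac1* changed sign to -0.40 at 6 h and -0.28 at 10 h. With that reference the median log2 change of the members was -0.028 at 6 h, -0.104 at 10 h and -0.692 at 24 h. At 24 h *Atf4* (-0.692) and *Chac1* (-1.115) then came to lie past 1.5-fold lower, and *Ddit4* (0.577) was no longer past 1.5-fold. The median difference between systems at 24 h, O4AID minus CreER, was -0.074, and -0.058 with a pseudocount of 5 CPM and -0.438 with CreER at 36 h. Sign changes near zero in CreER were *Phgdh* at 12 h with copies summed (0.031, an alternative added after seeing the data), *Chac1* at 24 h with total counts (0.021) and with a minimum of 10 counts for each library (0.002), and *Trib3* at 36 h with total counts (-0.060). With a library left out, values spanned zero for *Asns* (-0.014 to 0.011) and *Phgdh* (-0.079 to 0.040) at 12 h, for *Chac1* (-0.078 to 0.281), *Psat1* (-0.024 to 0.065) and *Phgdh* (-0.108 to 0.010) at 18 h, for *Atf4* (-0.011 to 0.045) and *Chac1* (-0.184 to 0.177) at 24 h, and for *Atf4* (-0.058 to 0.033) and *Trib3* (-0.031 to 0.068) at 36 h. Over all genes, DESeq2 called 956 at 18 h (1616 in edgeR) and 2523 at 24 h (4089), and without the low-count filter 222 were called at 12 h (75). The cause of these differences was not tested. The O4AID counts over all genes also moved by over 1.5 times, from 106 to 325 at 1.5 h and 716 to 1101 at 6 h with a pseudocount of 0.1 CPM. With 5 CPM they were 29, 327, 627 and 1756 (106, 716, 1279 and 3078), and with a 2-fold threshold 15, 160, 354 and 1092.

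Replicate numbers did not pair the CreER libraries (correlations of same-numbered deviations -0.0781 to 0.0881 over 13486 genes, 0 of 10 pairs above 0.1). With the replicate block 0, 1, 3 and 4 members passed at 12, 18, 24 and 36 h, 2 between adjacent times and 5 over the course. Depth limits *Atf3* most, with 98 to 144 reads a CreER library.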

Other observations

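In CreER, 8 of 10 p53 targets rose at 36 h and none fell (median log2 0.41), where 19.4% of all genes rose and 17.2% fell, led by *Mdm2*, the p53 ubiquitin ligase (log2 0.72, adjusted p = 6.58e-14), and the cyclin *Ccng1* (0.66, adjusted p = 2.39e-13). In O4AID 0 of the 10 were past 1.5-fold at 1.5 and 6 h, 1 at 10 h and 2 at 24 h, all higher (5.13% and 11.6% of all genes at those last times), with *Phlda3*, an AKT inhibitor, at 1.26. Of 8 immediate-early genes, 4 rose and 2 fell at 36 h in CreER, with *Jun* at 0.97 (adjusted p = 3.07e-10), *Fos* at 0.82 (0.00213), *Egr1* at -1.04 (4.44e-06) and *Ier2* at -0.33 (3.26e-05). In O4AID 3 of 6 were higher at 6 h (2.58% of all genes), and at 24 h *Jun* stood at 1.66 and *Ier2* at -0.80.

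The counts that follow are to be read against all genes. Of these, 19.4% rose and 17.2% fell at 36 h in CreER. In O4AID 0.276%, 2.58%, 5.13% and 11.6% were higher at 1.5, 6, 10 and 24 h, and 10.8% were lower at 24 h. Marker counts below are for 36 h in CreER and 24 h in O4AID. The aryl hydrocarbon receptor battery was 1 of 5 higher in O4AID at 1.5 h and 5 of 5 from 6 h. There *Cyp1a1*, a cytochrome that oxidises planar aromatic compounds, stood at log2 2.78 at 1.5 h and 7.35 at 24 h. In CreER 3 of the 5 rose and 1 fell at 36 h, with *Cyp1b1* at 1.28 (adjusted p = 1.17e-12), *Nqo1* at 0.67 (1.31e-10) and *Tiparp* at -0.29 (6.5e-06). Of the ESC markers, 1 rose and 5 fell at 36 h in CreER (*Nanog* 0.20, *Tdgf1* -1.41) and 6 of 7 were lower at 24 h in O4AID (*Esrrb* -2.82). Trophectoderm markers were 7 of 7 higher in CreER (*Hand1* 2.71, *Cdx2* 2.43) and 5 of 6 in O4AID (*Krt7* 2.59). Primitive endoderm markers gave 2 higher and 1 lower of 6 in CreER (*Gata6* 2.61, *Dab2* 1.51) and 3 of 4 higher in O4AID (*Dab2* 2.64). Of the fibroblast markers, 1 of 4 rose in CreER and 1 of 2 was lower in O4AID (*Col1a1* -1.39).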
